A study of Mus musculus with 9 samples.

Results

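The genes described here encode the machinery of DNA replication and the regulators that bring cells into S phase. They were chosen by name, 52 genes in all out of 56691 in the deposited table. Each of the 52 had 1 row in the table, and all 52 were among the 14151 genes that passed a low-count filter and were tested. RNA was sequenced from NIH/3T3 cells, an established mouse embryonic fibroblast line labelled wild type, in 9 libraries. Co-treated cells (3 libraries) had been given UVA at 10 J/cm2 together with alpha-arbutin, a glycosylated hydroquinone. UVA cells (3 libraries) had been given the same UVA dose alone, and their titles read MOCK. Control cells (3 libraries) had a treatment label without UVA or alpha-arbutin. The study asks whether alpha-arbutin counters UVA photodamage. No source used here gives the alpha-arbutin dose, the order of the treatments, the time to harvest or whether a group's 3 libraries were separate cultures. The p-values below therefore measure only the spread between these libraries, which may be technical.

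Replication begins with licensing, in which the origin recognition complex (ORC), Cdc6 and Cdt1 load the ring-shaped MCM helicase onto DNA before S phase. The kinases Cdc7-Dbf4 and cyclin E-Cdk2, with Cdc45 and the GINS complex, then turn the loaded ring into an active helicase. DNA polymerases alpha, delta and epsilon copy the strands, with the sliding clamp PCNA and its loader RFC holding the polymerases on DNA, and enzymes such as ribonucleotide reductase supply the nucleotides. Many of these genes are transcribed by E2F factors as cells leave G1, so in cycling cultures their RNA follows the share of cells in late G1 and S phase. In these bulk samples, fewer cells in S phase and less RNA per cell cannot be told apart.

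Total counts, in units of 1e6, were 16.4 to 18.16 in co-treated, 16.3 to 20.06 in UVA and 17.11 to 20.86 in control libraries. A set of 7 fibroblast markers was detected in every group, and its summed level was lower after UVA. It was 5304 to 5631 CPM (counts per 1e6 counts) in co-treated, 5570 to 5818 CPM in UVA and 7612 to 7850 CPM in control libraries. These marker sums use the library total alone, whereas all CPM values of single genes and of the replication genes are also scaled by the TMM method. The members did not move together: Vim, the most abundant, was at 3401 CPM in co-treated, 3590 CPM in UVA and 2721 CPM in control cells, while the other 6 were lower after UVA, with Col1a1 at 299.7 CPM in co-treated, 293 CPM in UVA and 957 CPM in control cells. Their part in the results on the replication genes was not tested. Markers of epithelial, endothelial, immune, muscle and fat cells each summed to at most 5.89 CPM in any library. One library stood a little apart for the replication genes. In co-treated replicate 1 they lay at a median of -0.038 on the log2 scale from their group means, against 0.003 for all genes. There 11 of the 52 had their lowest value of the 9 libraries, against 8 in each of co-treated replicates 2 and 3.

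E2F factors bind near gene starts, and the window around the start is shown for 4 of the genes that come up below: Orc3, which fell, Pole2 and Clspn, which rose, and Mcm3, which did not pass the test. Windows run from 250 bases before to 50 bases after the start, on the strand of the gene, and come from RefSeq (GRCm38.p6). Capitals mark the E2F words searched for on both strands, TTTCCCGC, TTTGGCGC, TTTCGCGC and TTTGCCGC, or their reverse complements.
Orc3 (chr4:34614893-34615192, minus strand): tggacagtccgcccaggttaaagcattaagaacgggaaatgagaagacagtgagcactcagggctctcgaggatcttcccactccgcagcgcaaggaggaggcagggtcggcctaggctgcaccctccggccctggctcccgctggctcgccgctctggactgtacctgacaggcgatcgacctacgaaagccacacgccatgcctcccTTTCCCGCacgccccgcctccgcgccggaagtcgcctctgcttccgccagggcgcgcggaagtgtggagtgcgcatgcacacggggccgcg
Pole2 (chr12:69228141-69228440, minus strand): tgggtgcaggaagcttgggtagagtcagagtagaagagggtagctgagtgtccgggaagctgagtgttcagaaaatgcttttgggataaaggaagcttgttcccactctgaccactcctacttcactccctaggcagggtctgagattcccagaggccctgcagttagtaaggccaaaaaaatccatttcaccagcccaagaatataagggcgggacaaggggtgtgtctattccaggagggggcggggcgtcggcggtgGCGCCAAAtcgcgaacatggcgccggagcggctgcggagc
Clspn (chr4:126556730-126557029, plus strand): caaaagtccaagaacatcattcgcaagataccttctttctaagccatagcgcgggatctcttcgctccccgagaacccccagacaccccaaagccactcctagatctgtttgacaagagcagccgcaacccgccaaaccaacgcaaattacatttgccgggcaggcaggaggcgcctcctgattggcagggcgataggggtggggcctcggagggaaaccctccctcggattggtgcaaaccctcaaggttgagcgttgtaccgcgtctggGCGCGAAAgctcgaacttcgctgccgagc
Mcm3 (chr1:20820263-20820562, minus strand): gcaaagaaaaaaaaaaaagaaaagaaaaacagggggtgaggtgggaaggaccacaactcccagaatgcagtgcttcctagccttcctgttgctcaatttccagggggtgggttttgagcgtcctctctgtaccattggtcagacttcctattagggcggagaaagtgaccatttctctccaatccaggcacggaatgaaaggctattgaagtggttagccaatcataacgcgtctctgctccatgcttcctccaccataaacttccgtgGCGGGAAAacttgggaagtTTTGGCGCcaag
With the first base of the last 50 counted as 0, the word began at -41 in Orc3, at 10 in Pole2 and at 21 in Clspn, and Mcm3 held 1 at 19 and another at 38. RefSeq windows were matched for 42 of the 52 genes, and 16 of the 42 (38.1%) held at least 1 of these words, against 704 of 27025 genes with a window (2.6%). Some words overlap, as in Mcm5 and Mcm6, where TTTCGCGC and TTTGGCGC on opposite strands share bases. The end of the window was found in a transcript of the gene for 44 of the 49 windows. It was not found for those of Mcm5 and Mcm6, nor for the E2f2 window with a word. For the 6 genes with more than 1 window, the window with the most words was counted. Among the matched genes, a word was present in 2 of 6 that rose after UVA, 1 of 6 that fell and 13 of 30 that did not pass the test. The 2 that rose are Pole2 and Clspn, whose calls were lost with DESeq2 and with limma, so with either tool 0 of the matched genes that rose held a word. No window was matched for Ccne2 and Mcm4, which rose, or for Gins2 and Pole, which fell. Gins1, Gins4, Gmnn, Prim2, Rfc2 and Tipin had none either, so these genes were not searched. CCAAT, the core of the NF-Y motif, was present in 23 of 42 (54.8%), against 41.1% of all genes with a window. A match describes letters only and is not a binding site, and a window without a match says only that these letters are not in it.

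Per unit of exon length, the 52 genes spanned a wide range of expression. In control cells the highest was Mcm4, at 69.0 ± 0.983 FPKM (counts scaled to exon length and library total; SD, n = 3), followed by the clamp gene Pcna at 58.3 ± 0.996 and Rrm2, the regulated subunit of ribonucleotide reductase, at 56.4 ± 1.00 FPKM. The helicase subunits were not level with each other: Mcm3 (53.9 ± 0.779 FPKM) and Mcm7 (53.6 ± 2.76 FPKM) did not differ beyond their spread, whereas Mcm5 and Mcm2 were at 27.6 and 22.3 FPKM. In ORC, Orc6 (25.2 FPKM) and Orc2 (22.5 FPKM) stood above Orc4, Orc1, Orc3 and Orc5, which lay between 5.71 and 8.92 FPKM. In GINS, Gins4 was at 28.1 FPKM and Gins2 at 4.61 FPKM. These rankings depend on the annotated exonic lengths, and in CPM the order differed. Gins4 (1349 bases) was at 37.7 CPM in control cells and Gins2 (4097 bases) at 18.8 CPM. Orc6 (2469 bases) was at 61.9 CPM, below Orc4 (7458 bases) at 66.25 CPM. Rrm1 (11012 bases) was the highest of the 52, at 372 CPM. The lengths of the transcripts made in these cells were not measured. The lowest of the 52 was E2f2, an activating E2F factor, at 1.01 FPKM.

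**Figure D1:**
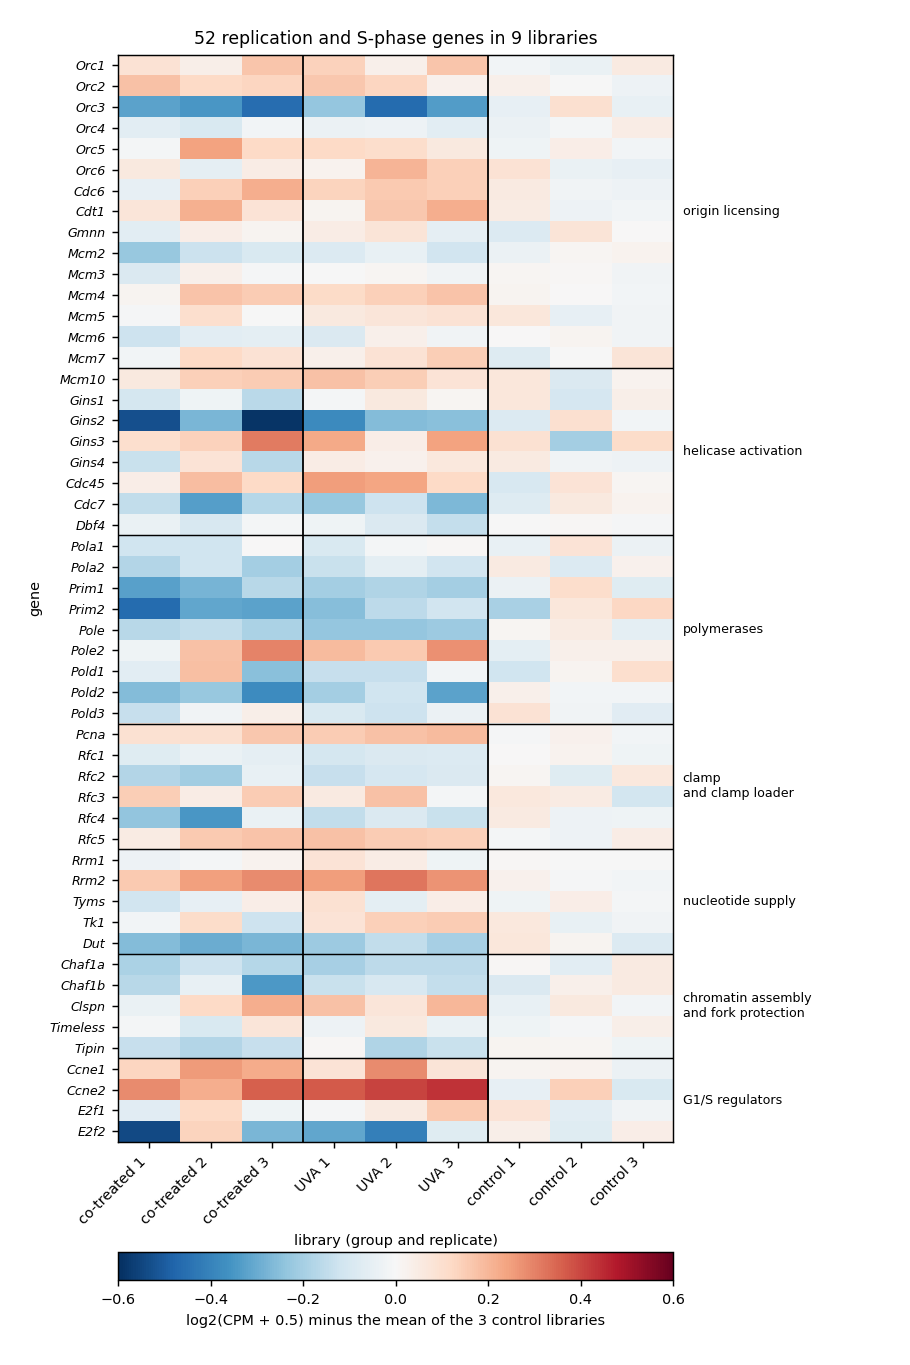
Heat map of the 52 genes (rows, grouped by role) in 9 libraries (columns); colour is log2(CPM + 0.5) minus the mean of the 3 control libraries, red above and blue below. Orc3, Gins2 and Dut are blue and Ccne2 and Rrm2 are red in all 6 libraries that received UVA, while most rows stay pale.

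UVA cells were first set against control cells, to see how these genes stood after UVA alone. With all genes tested together by edgeR's quasi-likelihood test (adjusted p under 0.05), 8 of the 52 rose, 8 fell and 36 did not pass. Thus 30.8% were called, near the 29.3% called among all tested genes (14.7% higher and 14.6% lower). The called genes of the 52 changed less, with a median absolute log2 fold change of 0.207 against 0.31 for all called genes. Their group was also measured more precisely, with a median standard error of 0.06 for the 52 and 0.086 for all tested genes. The median log2 fold change of the 52 was 0.02 (all tested genes: 0.00) and the range -0.34 to 0.40. Of the 52, 51 had a 95% interval within a 1.5-fold change either way (67% of all tested genes); the exception was E2f2, with few counts. The genes that rose included Ccne2, Rrm2, Pcna and Mcm4, and those that fell included Orc3, Gins2, Pole, Pold2 and Dut. Groups did not overlap for 28 of the 52, against 42% of all tested genes, and 26 had an unadjusted p under 0.05, against 38.9%. Without single libraries the counts moved: 4 rose without control replicate 1 and 5 without control replicate 3, and 5 fell without control replicate 2. The share called among all tested genes dropped as well. Without control replicates 1, 2 and 3 it was 23.9%, 23.4% and 22.8%, beside 23.1%, 21.2% and 21.2% of the 52. The calls of 5 genes, Ccne2, Rrm2, Pcna, Orc3 and Pole, held under all 15 alternatives.

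**Figure D2:**
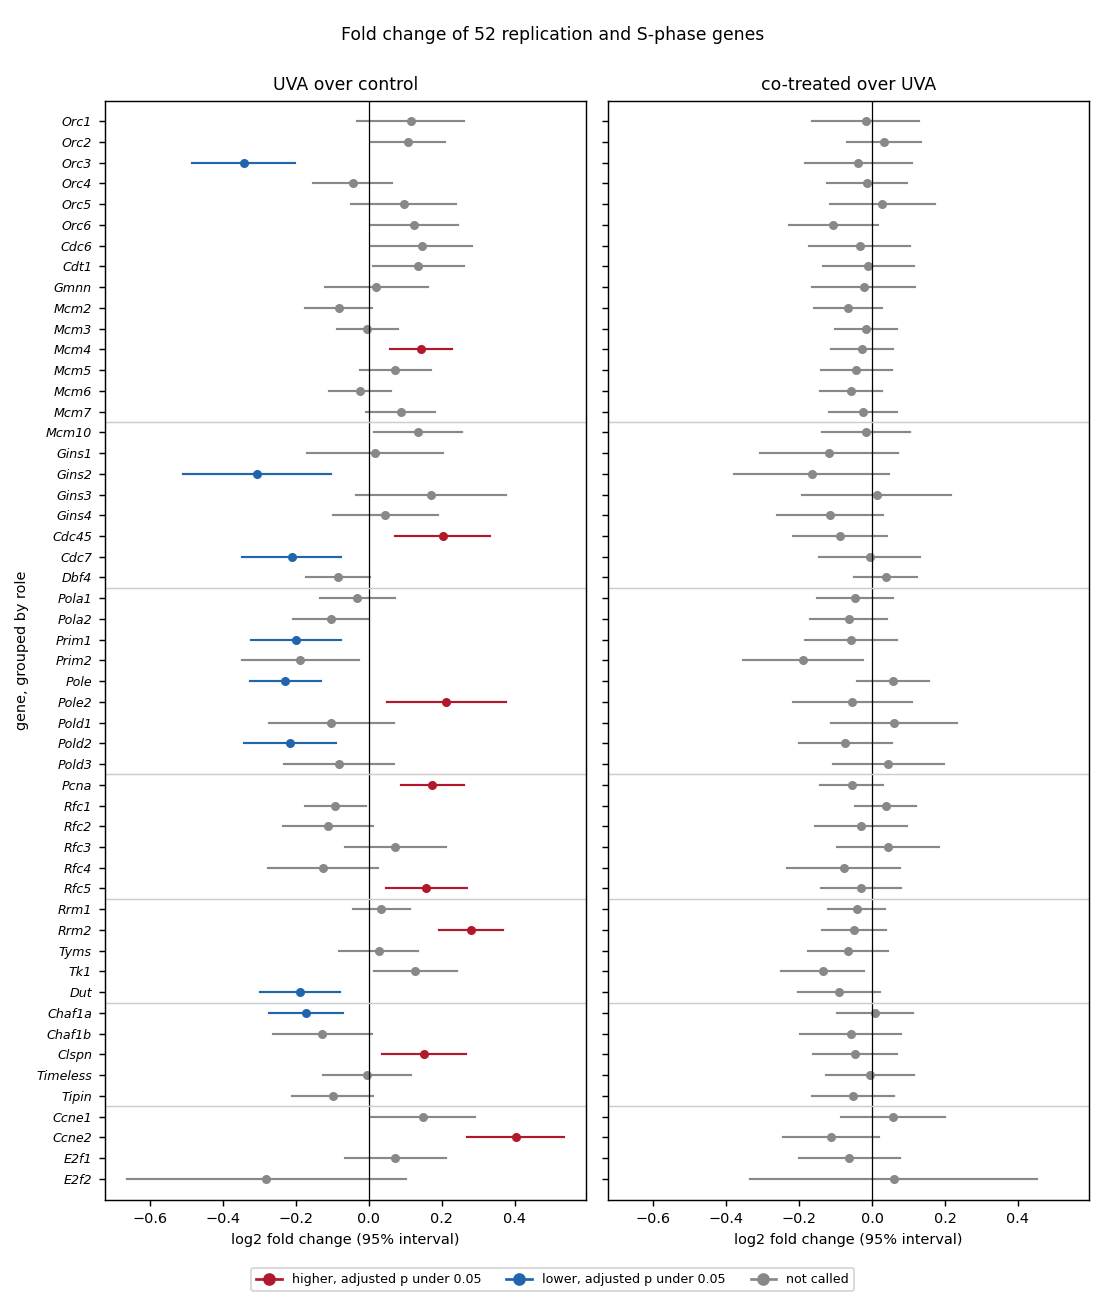
Log2 fold change (point) with 95% interval (line) of each of the 52 genes, UVA over control on the left and co-treated over UVA on the right, grouped by role. On the left 8 genes lie above and 8 below 0 with an adjusted p under 0.05, between -0.34 and 0.40; on the right all 52 points are grey and lie between -0.19 and 0.06.

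Among the regulators of S-phase entry, Ccne2 had the largest log2 fold change of the 52 genes. Ccne2 (ENSMUSG00000028212, chromosome 4, 11191351 to 11204779 on mm39) encodes cyclin E2, which activates Cdk2 at the start of S phase. Its level was 55.7, 57.2 and 58.3 CPM in UVA cells, against 41.6, 47.7 and 40.4 CPM in control cells. Every UVA library lay above every control library. The log2 fold change was 0.40 ± 0.06 (SE; adjusted p = 1.89e-05), an increase of 32.2%. The gene spans of Ccne2 and Ints8, introns included, overlap on opposite strands over 5622 bases, and Ints8 was at 0.09 (adjusted p = 0.294). The overlap of exons was not measured and the strandedness of counting is not given, so any effect on the counts is unknown. The Ccne2 paralog Ccne1, cyclin E1, was at 0.15 ± 0.07 and did not pass (adjusted p = 0.111), although its UVA and control libraries did not overlap. E2f1, an activating E2F factor and itself an E2F target, was at 0.07 ± 0.07 (adjusted p = 0.459), and E2f2, with 3.2 to 5.4 CPM across libraries, at -0.28 ± 0.19 (adjusted p = 0.282).

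Of the 15 licensing genes, 1 rose and 1 fell, where 14.7% of all tested genes rose and 14.6% fell. The same shares are to be set beside the counts of every role below. Orc3 (ENSMUSG00000040044, chromosome 4, 34570796 to 34614944 on mm39) encodes a core subunit of ORC and carries an E2F word in the window shown above. It had 41.3, 35.1 and 38.4 CPM in UVA cells, against 46.9, 51.97 and 47.1 CPM in control cells. All UVA libraries were below all control libraries, and Orc3 fell by 21.2% (log2 fold change -0.34 ± 0.07, adjusted p = 0.000328). The other ORC subunits lay between -0.04 (Orc4) and 0.12 (Orc6) and did not pass. Mcm4, one subunit of the helicase ring, had 267, 272 and 278 CPM in UVA cells and 249, 247 and 244 CPM in control cells, without overlap. It rose by 0.14 ± 0.04 (adjusted p = 0.0103) but did not pass without control replicate 3 (adjusted p = 0.055). The other MCM subunits did not pass and pointed both ways, with Mcm7 at 0.09, Mcm5 at 0.07, Mcm3 at 0.00, Mcm6 at -0.02 and Mcm2 at -0.08. The loaders Cdc6, at 0.15 ± 0.07 (adjusted p = 0.109), and Cdt1, at 0.14 ± 0.06 (adjusted p = 0.096), did not pass either, and Gmnn, which encodes the Cdt1 inhibitor geminin, was at 0.02. Without UVA replicate 1, Cdt1 passed (adjusted p = 0.0235).

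Helicase activation had genes on both sides, with 1 of 8 higher and 2 lower. Cdc45, which travels with MCM and GINS at the fork, had 54.4, 53.9 and 49.7 CPM in UVA cells, against 42.7, 48.3 and 46.0 CPM in control cells. The lowest UVA library was just above the highest control library, and Cdc45 rose by 0.20 ± 0.06 (adjusted p = 0.0161). The call was lost without UVA replicate 1 (adjusted p = 0.0631), UVA replicate 2 (0.0555) or control replicate 1 (0.107). The gene spans of Cdc45 and Ufd1 overlap over 209 bases on opposite strands, and Ufd1 rose by 0.24. Gins2, a subunit of GINS, had 14.3, 15.6 and 15.7 CPM in UVA cells and 17.7, 20.1 and 18.6 CPM in control cells. Its groups did not overlap, and it fell (-0.31 ± 0.10, adjusted p = 0.0195), a call that was lost without UVA replicate 1 (0.0812) or control replicate 2 (0.103). The other GINS subunits did not pass, at 0.02 (Gins1), 0.17 (Gins3) and 0.05 (Gins4). Cdc7, the kinase that phosphorylates MCM, fell (log2 fold change -0.21 ± 0.07, adjusted p = 0.0161), with 39.7 to 43.9 CPM in UVA cells and 45.4 to 49.8 CPM in control cells. That call was lost without UVA replicate 3 (0.0746), control replicate 2 (0.0799) or control replicate 3 (0.0617). Its activating partner Dbf4 was at -0.08 (adjusted p = 0.141), and Mcm10, a helicase activation factor, at 0.14 (adjusted p = 0.0846).

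Of the 9 polymerase genes among the 52, 3 fell and 1 rose, where 14.6% of all tested genes fell and 14.7% rose. Of the 9 estimates 8 were below 0 (49.5% of all tested genes), with a median log2 fold change of -0.10 (all tested genes: 0.00). The 9 leave out 3 small subunits of the same enzymes, Pold4 (0.81), Pole4 (0.30) and Pole3 (0.11, not called). With these, 3 of 12 subunits rose and 3 fell. Summed over the 9 genes, the level was 514.7 to 530.5 CPM in UVA libraries and 564.0 to 581.6 CPM in control libraries, without overlap. Pole (ENSMUSG00000007080, chromosome 5, 110434172 to 110485340 on mm39), the catalytic subunit of the leading-strand polymerase epsilon, had 89.2, 89.4 and 90.0 CPM in UVA cells, against 106, 108 and 101 CPM in control cells. The UVA libraries were tightly grouped and all below the control libraries, with a log2 fold change of -0.23 ± 0.05 (adjusted p = 0.000444). Pole2, the second subunit of the same enzyme, stood on the other side. It had 31.2, 30.4 and 33.1 CPM in UVA cells and 26.1, 27.8 and 27.8 CPM in control cells, also without overlap. It rose by 0.21 ± 0.08 (adjusted p = 0.044), but this call was lost with DESeq2 (adjusted p = 0.0675), with limma (0.0992), with no low-count filter (0.0703), and without co-treated replicate 2, UVA replicate 1, UVA replicate 3 or any one control library (up to 0.159).

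Primase and polymerase delta each held a gene that fell. Prim1, the catalytic subunit of the primase that starts each new strand, had 55.0, 55.8 and 55.0 CPM in UVA cells and 61.9, 68.3 and 60.3 CPM in control cells. Its groups did not overlap, and it fell (-0.20 ± 0.06, adjusted p = 0.0123); without control replicate 2 the call was lost (0.118). The large primase subunit gene Prim2 was at -0.19 ± 0.08 and did not pass (adjusted p = 0.072), and its groups overlapped. It passed without control replicate 1 (0.0109). Pold2, an accessory subunit of polymerase delta, had 52.6, 55.7 and 48.4 CPM in UVA cells and 61.9, 59.9 and 60.0 CPM in control cells. Pold2 fell (-0.22 ± 0.06, adjusted p = 0.00783), with no overlap between groups, and its call was lost without UVA replicate 3 (0.0675). Pola1, Pola2, Pold1 and Pold3 did not pass, at -0.03 to -0.10.

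In the clamp and clamp loader group, 2 of 6 genes rose and 0 fell, beside 14.7% and 14.6% of all tested genes. Pcna (ENSMUSG00000027342, chromosome 2, 132091082 to 132095234 on mm39) encodes the sliding clamp and had 155, 157 and 159 CPM in UVA cells, against 139, 142 and 138 CPM in control cells. Every UVA library was above every control library, and Pcna rose by 0.17 ± 0.04 (adjusted p = 0.00226). A processed copy, Pcna-ps2, held 9440 counts over the 9 libraries beside 24117 for Pcna and rose by 0.24 ± 0.06 (adjusted p = 0.00238), so the split of reads between both is uncertain. Rfc5, a small subunit of the clamp loader, had 70.0, 68.9 and 68.4 CPM in UVA cells and 61.3, 60.5 and 63.9 CPM in control cells, without overlap. Rfc5 rose by 0.16 ± 0.05 (adjusted p = 0.027) and was lost with no low-count filter (0.0729) and without UVA replicate 1, UVA replicate 2, control replicate 1 or control replicate 2 (up to 0.104). The loader genes Rfc1 to Rfc4 did not pass, at -0.13 to 0.07.

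Nucleotide supply also split. Rrm2 (ENSMUSG00000020649, chromosome 12, 24758240 to 24764145 on mm39) encodes the regulated subunit of ribonucleotide reductase, which makes deoxyribonucleotides. It had 185, 194 and 187 CPM in UVA cells, against 158, 155 and 154 CPM in control cells. The groups were well apart, and Rrm2 rose by 21.5% (log2 fold change 0.28 ± 0.04, adjusted p = 1.01e-05), the smallest adjusted p of the 52. Rrm1, the large subunit of the same enzyme, was at 0.03 ± 0.04 (adjusted p = 0.549). Dut, the dUTPase that keeps uracil out of DNA, had 64.4, 67.8 and 65.4 CPM in UVA cells and 78.7, 75.9 and 70.8 CPM in control cells. Its groups did not overlap, and it fell (-0.19 ± 0.05, adjusted p = 0.00846); without control replicate 1 the call was lost (0.0658). Tk1, the thymidine kinase of S phase, was at 0.13 ± 0.06 (adjusted p = 0.083), with all UVA libraries above all control libraries, and Tyms, thymidylate synthase, was at 0.03.

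Of the genes for chromatin assembly and fork protection, 1 of 5 rose and 1 fell. Chaf1a, the large subunit of the CAF-1 histone chaperone, had 78.3, 80.6 and 80.7 CPM in UVA cells and 90.5, 86.1 and 93.3 CPM in control cells. Its groups did not overlap, and it fell (-0.17 ± 0.05, adjusted p = 0.00917), with the call lost without control replicate 3 (0.07). The gene spans of Chaf1a and Ubxn6, introns included, overlap over 5245 bases on opposite strands, and Ubxn6 was at 0.12 and did not pass. Clspn, which encodes the checkpoint adaptor claspin, had 109, 101 and 111 CPM in UVA cells and 93.4, 100.5 and 95.4 CPM in control cells, with UVA replicate 2 just above control replicate 2. It rose by 0.15 ± 0.06 (adjusted p = 0.0437), a call lost with DESeq2 (0.0663), with limma (0.184), and without co-treated replicate 2, UVA replicate 1, UVA replicate 3, control replicate 1 or control replicate 3 (up to 0.16). Chaf1b, Timeless and Tipin, the last 2 forming a fork protection complex, did not pass, at -0.13 to 0.00.

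**Figure D3:**
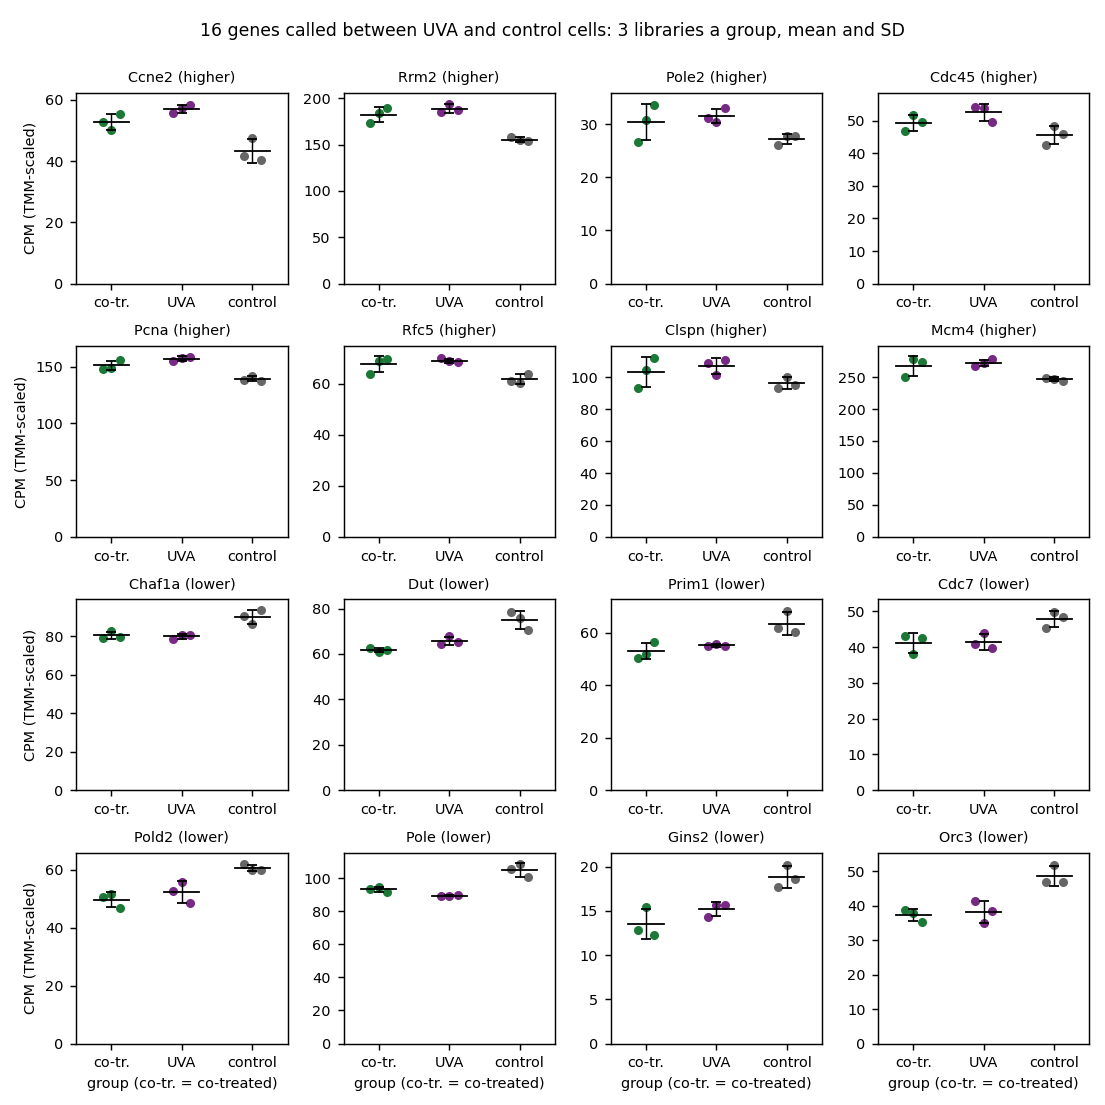
Level (CPM, y axes from 0) of the 16 genes called between UVA and control cells in each of the 3 libraries a group (points), with mean (line) and SD (bar), from the largest rise, Ccne2, to the largest fall, Orc3. The UVA and control points do not overlap in any panel. Co-treated points lie on the UVA side of the control points, apart from co-treated replicate 1 in some panels. That library is within the control range for Pole2 (26.72 CPM), Clspn (93.65 CPM) and Cdc45 (46.98 CPM), and just above it for Mcm4 and Rfc5.

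Co-treated cells were next set against UVA cells, which received no alpha-arbutin. No gene of the 52 was called by edgeR, where 5 of all 14151 tested genes (0.0353%) were, 4 higher (0.0283%) and 1 lower (0.00707%), and DESeq2 and limma also called 0 of the 52. At an unadjusted p under 0.05 there were 2, against 6.76% of all tested genes: Prim2 at -0.19 ± 0.08 (adjusted p = 0.699) and Tk1 at -0.14 ± 0.06 (adjusted p = 0.686). Prim2 had 27.6, 30.6 and 30.5 CPM in co-treated cells and 31.9, 34.2 and 35.2 CPM in UVA cells, without overlap. Tk1 had 82.7, 90.2 and 76.8 CPM in co-treated cells and 88.6, 92.5 and 93.2 CPM in UVA cells, and these overlapped. Groups did not overlap for 6 genes, Prim2, Gins1, Ccne2 and Dut lower and Rfc1 and Pole higher in co-treated cells (10.8% of all tested genes).

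For the 5 genes whose calls after UVA held under all alternatives, no difference between co-treated and UVA cells passed the test. Ccne2 was at 52.6, 50.2 and 55.5 CPM in co-treated cells and 55.7, 57.2 and 58.3 CPM in UVA cells, a log2 difference of -0.11 ± 0.06 (adjusted p = 0.791). Rrm2 had 173, 184 and 189.5 CPM in co-treated cells, overlapping its UVA values of 185 to 194 CPM (-0.05 ± 0.04, adjusted p = 0.88). Orc3, at 38.8, 38.0 and 35.2 CPM, likewise overlapped its UVA values of 35.1 to 41.3 CPM (-0.04 ± 0.07, adjusted p = 0.948). Pcna, at 148, 149 and 156 CPM, overlapped its UVA values of 155 to 159 CPM (-0.06 ± 0.04, adjusted p = 0.854). Co-treated libraries were all below the UVA libraries in Ccne2 and overlapped them in Rrm2, Orc3 and Pcna. Pole, at 93.3, 94.5 and 91.8 CPM, lay above its UVA values of 89.2 to 90.0 CPM (0.06 ± 0.05, adjusted p = 0.875). For all 52 genes the 95% interval of the difference was within a 1.5-fold change either way (74.9% of all tested genes), with the lowest bound at -0.38 (Gins2) and the highest at 0.45 (E2f2). Of the 52 estimates 40 (76.9%) were below 0, against 50% of all tested genes, with a median of -0.04 (all tested genes: 0.00). Without co-treated replicate 1, in which the replication genes were low, 30 were below 0 and the median was -0.01. That library was singled out by these same genes, so leaving it out had to raise most of these estimates. Without co-treated replicate 2 or 3, 39 and 38 were below 0, and without any 1 UVA library 38 were.

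Set against control cells, co-treated cells had 6 of the 52 genes higher and 14 lower, 38.5% in all. Of all tested genes 25.8% were called, 13% higher and 12.9% lower. The median absolute log2 fold change was 0.205 for the called genes of the 52 and 0.306 for all called genes. For 50 of the 52 the 95% interval lay within a 1.5-fold change either way (67.6% of all tested genes). This comparison shares the control libraries with that of UVA and control cells. The genes that rose were Ccne2 (0.29 ± 0.07), Rrm2 (0.23 ± 0.04), Ccne1 (0.21 ± 0.07), Orc2 (0.14 ± 0.05), Pcna (0.12 ± 0.04) and Mcm4 (0.12 ± 0.04). The gene spans of Orc2 and Nif3l1, introns included, overlap over 19046 bases on opposite strands. Nif3l1 rose between UVA and control cells (0.29, adjusted p = 0.00448). The overlap of exons was not measured, so any effect on the counts is unknown. The lower genes were led by Gins2, at 12.9, 15.5 and 12.3 CPM in co-treated cells and 17.7, 20.1 and 18.6 CPM in control cells (-0.47 ± 0.10, adjusted p = 0.000715). Orc3 (-0.38 ± 0.07) and Prim2 (-0.38 ± 0.08) followed, and Pold2, Dut and Prim1 lay between -0.26 and -0.29. The remaining 8 that fell, Cdc7, Rfc4, Chaf1b, Pole, Pola2, Chaf1a, Tipin and Mcm2, lay between -0.15 and -0.22. In the polymerase group 5 of 9 fell and 0 rose, where 12.9% of all tested genes fell and 13% rose. With Pold4, Pole3 and Pole4, 5 of 12 fell and 2 rose. The summed level of the 9 was 500.1 to 523.9 CPM in co-treated libraries and 564.0 to 581.6 CPM in control libraries. The calls of Ccne2, Rrm2, Gins2, Orc3, Prim2, Pold2, Dut and Prim1 held under all 15 alternatives. Of the 20 calls, 15, 13 and 13 were kept without co-treated replicate 1, 2 and 3, and 13, 10 and 9 without control replicate 1, 2 and 3. Without co-treated replicate 1, a library singled out because these genes were low there, the split was 9 higher and 10 lower. That fit called 36.5% of the 52 and 24.7% of all tested genes. Cdc6, Pole2, Rfc5 and Clspn were added as higher, and Orc2, Mcm2, Rfc4, Chaf1b and Tipin were lost. Without control replicate 2 or 3, 19.2% and 17.3% of the 52 were called, below the 20.3% and 19.7% of all tested genes in the same fits. The higher share among the 52 than among all tested genes was thus not kept without either of these control libraries.

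**Figure D4:**
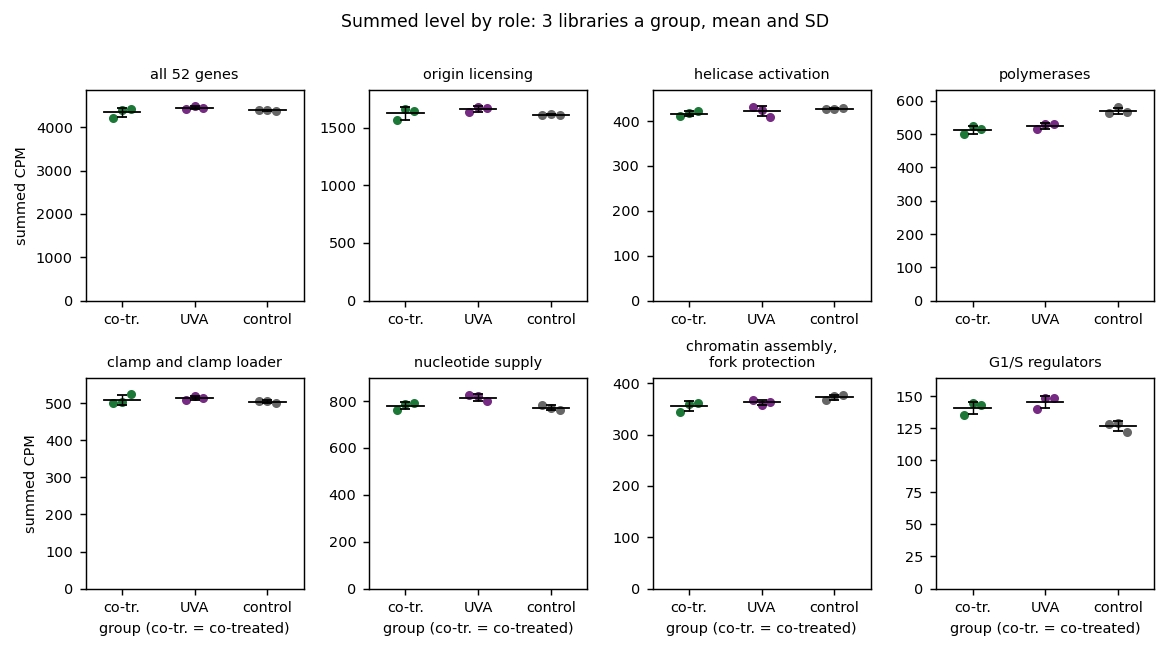
Summed level (CPM, y axes from 0) of all 52 genes and of each role in 3 libraries a group (points), with mean (line) and SD (bar). The polymerase panel has all 6 libraries with UVA, at 500.1 to 530.5 CPM, below the control libraries at 564.0 to 581.6 CPM, and the G1/S panel has them above the control libraries.

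Summed over all 52 genes, the level was 4344 ± 109 CPM in co-treated, 4448 ± 30.3 CPM in UVA and 4388 ± 16.1 CPM in control cells (SD, n = 3), and co-treated replicate 1 was the lowest library at 4218.3 CPM. The G1/S regulators summed to 141 ± 4.86 CPM in co-treated, 146 ± 5.00 CPM in UVA and 126.5 ± 3.82 CPM in control cells. The nucleotide supply genes summed to 781 ± 16.6 CPM in co-treated, 815 ± 13.2 CPM in UVA and 773 ± 9.55 CPM in control cells. In each sum the abundant genes weigh most.

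A further 106 genes of the same and neighbouring processes, 105 of them tested, gave a like count: 20 rose, 16 fell and 69 did not pass between UVA and control cells (34.3% called, against 29.3% of all tested genes). Without UVA replicate 2, 16 rose and 10 fell, in a fit that called 25.8% of all tested genes. The largest change was in Cdkn1a, the p21 inhibitor of cyclin E-Cdk2 and a ligand of PCNA. Cdkn1a had 165, 169.8 and 214 CPM in UVA cells, against 92.1, 96.1 and 90.3 CPM in control cells (0.98 ± 0.07, adjusted p = 1.89e-11), and 158, 178 and 197 CPM in co-treated cells. All 6 libraries with UVA were above the control libraries. Among 29 other replisome and origin factors 6 rose and 4 fell, where 14.7% of all tested genes rose and 14.6% fell. Pold4, the smallest subunit of polymerase delta, had 30.9, 30.0 and 38.6 CPM in UVA cells and 21.1, 18.8 and 17.3 CPM in control cells, and rose by 0.81 ± 0.09 (adjusted p = 1e-07). Pole4, a small subunit of polymerase epsilon, rose by 0.30 ± 0.06. Rpa1, the large subunit of the single-strand binding protein RPA, had 252, 259.5 and 249 CPM in UVA cells and 311, 310.5 and 312 CPM in control cells, and fell (-0.30 ± 0.04, adjusted p = 4.86e-07). Subunits of one polymerase thus stood on both sides: Pold4 rose and Pold2 fell, and Pole2 and Pole4 rose and Pole fell.

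Among the other G1/S regulators 3 of 23 tested rose and 6 fell. Of all tested genes 14.7% rose and 14.6% fell, the shares to set beside each list here. E2f8, an atypical E2F that represses E2F targets, had 77.0, 66.0 and 71.5 CPM in UVA cells and 50.9, 48.5 and 48.1 CPM in control cells, and rose by 0.54 ± 0.06 (adjusted p = 2.63e-08). Lin9, a subunit of the MuvB complex that controls cell cycle genes, rose by 0.37 ± 0.07, and E2f4, a repressive E2F of resting cells, fell (-0.26 ± 0.06). In nucleotide supply 3 of 13 rose and 1 fell, with the one-carbon enzyme Shmt1 at 0.26 and the deoxynucleotide hydrolase Samhd1 at -0.22. Of 11 chromatin replication genes 2 rose and 1 fell, Ssrp1, a FACT histone chaperone subunit, at -0.14. Of 9 replication checkpoint genes 1 rose, Hus1, a checkpoint clamp subunit, at 0.19, a call lost without UVA replicate 1 or control replicate 2 (adjusted p up to 0.0759). Mitosis genes pointed both ways, with 5 of 20 higher and 4 lower: Kif23, a kinesin of cytokinesis, was at 0.23 and Cdc20, an activator of the anaphase-promoting complex, at 0.21, while Cenpf, a kinetochore protein, was at -0.22 and the spindle checkpoint kinase Bub1b at -0.20. Between co-treated and UVA cells 0 of these 105 genes were called by edgeR, DESeq2 or limma, where edgeR called 0.0353% of all tested genes. By edgeR 8 of the 105 had an unadjusted p under 0.05, against 6.76% of all tested genes.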

How the data were processed

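RNA of 9 NIH/3T3 libraries was measured as counts per gene. Per the file headers, the authors deposited raw counts beside FPKM values for every Ensembl gene and library, with coordinates and exonic lengths. The deposited FPKM equals the count over exonic length and library total in 510219 of 510219 values within 0.01. HISAT2 2.2.1, HTSeq 0.6.1, cutadapt 1.9.1, bcl2fastq 2.20.0.422 and the build mm39 are named by the submitters' processing notes. No source used here gives the strandedness, RNA enrichment or annotation release. Per the labels' protocols, libraries used 2 ug of RNA and the VAHTS Universal V8 kit. Columns named NC were taken as control, since the other column names match the other titles.

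Genes were tested with edgeR 4.0.16 in R 4.3.3 (filterByExpr, TMM factors of 0.992 to 1.007, quasi-likelihood F-test, two-sided), with all 9 libraries in 1 fit on group and Benjamini-Hochberg adjustment over 14151 genes in each comparison. Errors of fold changes are standard errors of that fit, and adjusted p-values are from it unless another tool is named. Replicates of a group differed by more than counting noise (chi-square per degree of freedom 2.3 to 5.17), so none was merged. Alternatives were DESeq2 1.42.0, limma 3.58.1 on log2(FPKM + 1), other size factors, no low-count filter, a replicate block, only the groups compared, and each library left out. The fit was tested on simulated counts. The 52 genes and the other lists were chosen with earlier results of these data known. Named genes are those of the 52 called in any comparison and a few set by name, and up to 4 a list of the other genes with the smallest p, plus Cdkn1a; other genes of the 52 are given by value where they help. Promoter windows are from RefSeq on GRCm38.p6, a build other than mm39, matched by symbol, with no coordinate carried between builds.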

Additional observations from a re-analysis of the deposited data

How the results depend on the processing

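No called fold change reversed under any of the 15 alternatives per comparison. With no low-count filter, 2 of the 52 genes were higher in co-treated than in control cells, against 6 as reported. In that fit 28.8% of the 52 were called in either direction, against 11.4% of the 29538 genes then tested. Leaving out 1 library at a time gave 2 to 9 higher and 7 to 14 lower between co-treated and control cells, 4 to 8 higher and 5 to 8 lower between UVA and control cells, and 0 between co-treated and UVA cells. The share called among all tested genes in these fits was 19.7% to 27.2%, 22.8% to 30.2% and 0.00707% to 0.155%, in the same order. The other pathway genes lower between UVA and control cells numbered 10 to 17, with 10 without UVA replicate 2. Without UVA replicate 2 the median of the 52 between UVA and control cells was -0.004. Without co-treated replicate 1 it was -0.003 between co-treated and control cells. Same-numbered libraries deviated together only weakly (r -0.006 to 0.097 over 9 pairs, against -0.097 to 0.028 over 18 pairs of different number). Between co-treated and UVA libraries the same-number values were 0.071, 0.043 and 0.097, above every different-number value. Of 9 libraries, 7 correlated best with their own number, so whether the numbers pair the samples was not settled. Blocking on the number gave 19 calls among all tested genes between co-treated and UVA cells, against 5 without it. With a replicate block, 8 of the 52 rose and 9 fell between UVA and control cells, Prim2 being added (adjusted p = 0.0425), 0 were called between co-treated and UVA cells, and the 20 calls between co-treated and control cells were kept. With the block, 30.8% of all tested genes were called between UVA and control cells and 27.8% between co-treated and control cells. The cause of these shifts was not tested. With 3 libraries a group and a median standard error of 0.06, 11 of 16 calls between UVA and control cells and 12 of 20 between co-treated and control cells were lost under at least 1 alternative.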
